A study of Mus musculus with 15 samples.

Results

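The genes described here are those encoded by the mitochondrial genome: every row of the deposited count tables whose gene name begins with mt-. There are 37 of them among the 55487 mouse genes listed, made up of 13 protein-coding genes, 2 ribosomal RNA (rRNA) genes and 22 transfer RNA (tRNA) genes. They were followed in RNA sequencing libraries of erythroid progenitors, the precursors of red blood cells, from the fetal liver of mouse embryos at day E12.5. All mice carry the strain label 129S6/SvEvTac. The 15 libraries form 5 groups of 3. Group 1 of the mice has a wildtype group and an Rpl5 mutant group, and its molecule is labelled polyA RNA. Group 2 has a wildtype group, an Rpl5 mutant group and a group labelled as mutant low-yield, and its molecule is labelled total RNA. A sample sheet deposited with group 2 gives the mutants as Rpl5plusSkax23Jus, while the sheet of group 1 gives no allele, and what low-yield refers to is not defined in the labels. Rpl5 encodes a protein of the large subunit of the cytoplasmic ribosome. Replicates are separate libraries of a group, and because the labels do not say how many animals lie behind them, the p-values measure the spread between these libraries. Levels were compared within a group of mice and not between them, because the kind of RNA differs.

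The mitochondrial genome is a small circle that is transcribed from both strands into long precursors. The tRNAs lie between most of the other genes and are cut out, which frees the messenger RNAs and rRNAs. All 13 proteins are membrane subunits of the respiratory chain and ATP synthase, and they are made on mitochondrial ribosomes whose rRNAs are the other large products of the circle. The remaining subunits, the ribosomal proteins and the factors that copy and process mitochondrial RNA are encoded in the nucleus. Erythroid progenitors need mitochondria for the first and last steps of heme synthesis, and red cells lose the organelle when they mature.

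Parts of the mitochondrial genome are also present in the nucleus as pseudogenes, and reads from a sequence found in both places cannot be assigned with certainty. Transcripts of GENCODE release M21 (build GRCm38) were searched for nuclear copies with at least 95% identity over at least 90% of the copy. There were 11, all listed in the count tables, and 7 of them had a mean count of at least 100 per library. These 7 lie next to each other on chr1:24611535-24616197, minus strand, in the order of the mitochondrial genes they match. Gm28661 matched mt-Co2, Gm10925 matched mt-Atp6, Gm28437 matched mt-Co3, Gm10222 matched mt-Nd4l and Gm28439 matched the first 876 bases of mt-Nd4, each without a single difference along the copy. Gm28438 differed from the first 345 bases of mt-Nd3 at 1 base. Gm29216 matched the 3′ end of mt-Co1 from its own base 10 to base 492 and differed at 1 of those 483 bases, while its first 9 bases lay outside the match.

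The sequences that follow show how little separates the pairs. The first pair holds the only difference in the aligned part of mt-Nd3 and Gm28438, T3C, and the second pair the only one in the aligned part of mt-Co1 and Gm29216, A1066T, with the mitochondrial base first and positions counted from the first base of the mitochondrial gene. Capitals mark the base that differs, and the third pair has none because its sequences are the same.
mt-Nd3 (MT:9459-9518, plus strand): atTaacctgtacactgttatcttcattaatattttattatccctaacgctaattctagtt
Gm28438 (chr1:24613060-24613119, minus strand): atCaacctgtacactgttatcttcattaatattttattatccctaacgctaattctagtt
mt-Co1 (MT:6390-6449, plus strand): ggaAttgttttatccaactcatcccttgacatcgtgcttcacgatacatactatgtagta
Gm29216 (chr1:24616129-24616188, minus strand): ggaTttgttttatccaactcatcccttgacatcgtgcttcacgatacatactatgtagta
mt-Atp6 (MT:7927-7986, plus strand): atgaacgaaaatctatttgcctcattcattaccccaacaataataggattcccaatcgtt
Gm10925 (chr1:24614592-24614651, minus strand): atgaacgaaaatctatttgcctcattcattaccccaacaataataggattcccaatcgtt

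The counts were divided between the members of such pairs in a way that did not follow the number of differences. The pairs also differ in how much of the gene the copy covers. Gm29216 covers 31.3% of mt-Co1 and Gm28439 63.6% of mt-Nd4, while Gm10925 covers 99.6% of mt-Atp6, so the shares are not directly comparable between pairs. The mt-Co1 row kept nearly all of the counts of its pair, 99.8% to 99.9% over the 15 libraries. The mt-Atp6 row, by contrast, kept 8.80% to 13.1% in group 1 and 14.1% to 24.5% in group 2, so most of its counts were listed under Gm10925. The mt-Nd3 row kept 2.71% to 3.75% in group 1 and 3.15% to 19.2% in group 2. For mt-Co2 the range was 23.0% to 28.8% in group 1 and 12.8% to 34.0% in group 2, and for mt-Co3 it was 21.2% to 28.5% and 13.3% to 35.8%. The rows of mt-Nd4 and mt-Nd4l kept the larger part. For mt-Nd4 it was 81.0% to 82.6% in group 1 and 59.1% to 71.8% in group 2, and for mt-Nd4l 83.1% to 88.9% and 97.2% to 100%. The range over libraries was wider in group 2 than in group 1 for mt-Co2, mt-Atp6, mt-Co3, mt-Nd3 and mt-Nd4, and narrower for mt-Nd4l. For these genes the sum of the mitochondrial row and its copies is given beside the row itself, and the row alone is uncertain.

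**Figure D1:**
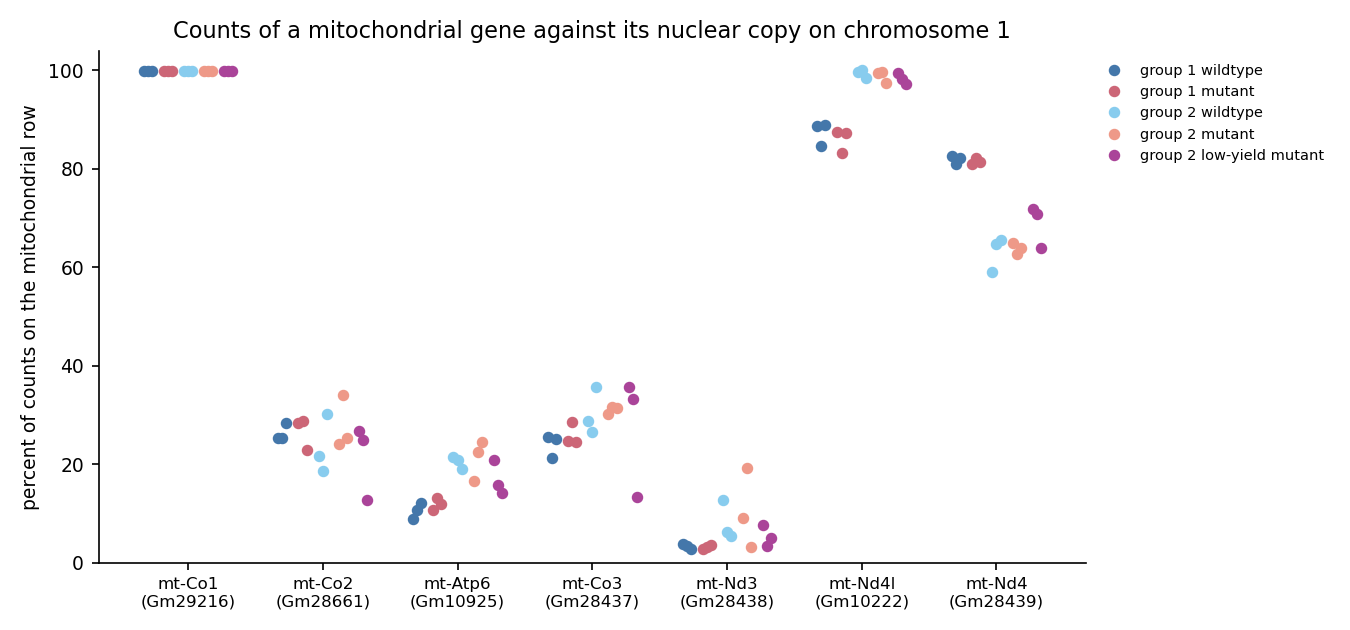
Percent of the counts of a mitochondrial gene and its nuclear copies that the files list on the mitochondrial row (y axis), for the 7 genes with a counted copy on chromosome 1 (x axis, copy in brackets); each point is 1 library, coloured by group. The mt-Co1 row holds nearly all counts of its pair in every library, the mt-Nd3 row reaches 19.2%, and for mt-Co2, mt-Atp6, mt-Co3, mt-Nd3 and mt-Nd4 the range over libraries is wider in group 2.

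Overlaps between the genes themselves are short. The end of mt-Atp8 and the start of mt-Atp6 share 43 bases on the same strand, shown in capitals in the last 80 bases of mt-Atp8, so reads inside that stretch can come from either.
mt-Atp8 (MT:7890-7969, plus strand): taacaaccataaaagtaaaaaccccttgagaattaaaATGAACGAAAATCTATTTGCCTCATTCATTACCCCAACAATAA
mt-Nd4l and mt-Nd4 share 7 bases, and mt-Nd5 and mt-Nd6 share 14 bases on opposite strands. mt-Nd6 is the single protein-coding gene on the minus strand, along with 8 of the tRNA genes. The use of strand in counting is not given in the sources used here, so transcripts of the 2 strands cannot be told apart where both are copied.

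Total counts per library were 48510828 to 58513669 in group 1 and 24954324 to 44827821 in group 2. Rpl5 stood at 520.5 to 570.4 CPM (the count scaled to an equal library size with TMM) in the group 1 mutant against 656 to 744 in wildtype. In group 2 it stood at 232 to 248 in the mutant and 219 to 278 in the low-yield mutant against 303 to 374. The erythroid regulator Gata1 was present in every library, at 206 to 407 CPM. Of the hepatocyte markers, albumin reached 23.3 CPM and Afp 31.8, and of the macrophage markers, C1qa reached 0.141 CPM and Adgre1 2.11. The granulocyte marker Mpo ranged from 26.2 to 493 CPM in group 1, its top value above every Gata1 value, and from 5.52 to 136 in group 2. In these bulk samples, fewer cells of a type and less RNA per cell cannot be told apart.

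The 3 classes of mitochondrial gene were captured very unequally. All 22 tRNA genes, which are 59 to 75 bases long against reads of 151 bases, had a count of 0 in all 15 libraries. A count of 0 allows up to 3 counts per gene, or 0.120 CPM (without TMM scaling) in the shallowest library, and this covers counting error only. The shortest of them, shown for its length, is mt-Ts2, a serine tRNA.
mt-Ts2 (MT:11613-11671, plus strand): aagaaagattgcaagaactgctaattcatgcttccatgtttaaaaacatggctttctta
No statement on tRNA levels can be made from these files, and the other 15 genes passed the filter on low counts in every fit.

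The 13 protein-coding genes took 2.77, 2.51 and 2.26% of all counts in the group 1 wildtype libraries and 1.66, 1.95 and 1.55% in the mutant libraries, with means of 2.51% ± 0.251 and 1.72% ± 0.205 (SD, n = 3, as for all ± values here). Every mutant library of group 1 was below every wildtype library. In group 2 the shares were 0.622, 0.865 and 0.730% in wildtype, 0.763, 0.815 and 0.464% in the mutant and 0.875, 1.15 and 0.504% in the low-yield mutant. Those 3 groups overlapped, and replicate 3 was the lowest of both mutant groups. With the nuclear copies added, the means were 3.15% ± 0.269 and 2.14% ± 0.248 in group 1 and 0.949% ± 0.157, 0.872% ± 0.240 and 1.09% ± 0.396 in group 2, in the same order of groups. These shares are descriptions of the libraries and were not tested.

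The rRNA genes took far less: 0.0628% ± 0.0289 of counts in group 1 wildtype, 0.0411% ± 0.00492 in its mutant, 0.0447% ± 0.00285 in group 2 wildtype, 0.0440% ± 0.00940 in its mutant and 0.0622% ± 0.0216 in the low-yield mutant. The wildtype mean of group 1 rests on 1 library, replicate 3, at 0.0961%, while replicates 1 and 2 were at 0.0453% and 0.0470%. The small-subunit rRNA, mt-Rnr1, made up 45.1% to 53.1% of rRNA counts in the libraries of group 1. In group 2 it made up 2.91% to 17.3% in wildtype, 2.92% to 4.62% in the mutant and 1.76% to 14.2% in the low-yield mutant. The part of library making in the rRNA counts was not tested, so they describe the libraries and not rRNA levels in the cells.

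**Figure D2:**
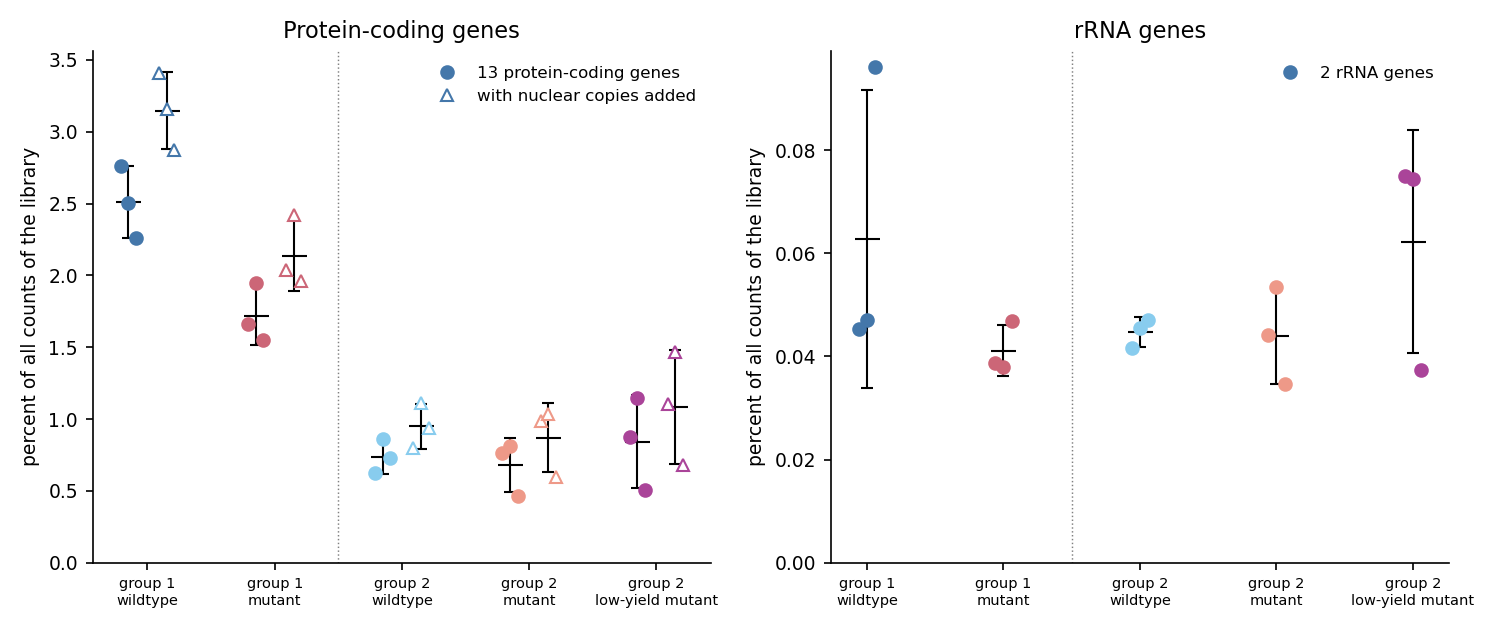
Percent of all counts of a library (y axis, from 0) held by the 13 protein-coding genes (left; triangles add the nuclear copies) and the 2 rRNA genes (right) in the 5 groups (x axis). Points are libraries, the black marks are the mean ± SD of 3 libraries, and the protein-coding share separates mutant from wildtype in group 1 but not in group 2.

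Per kilobase of gene, and with the copies added, the protein-coding genes spanned a 17.6-fold range in group 1 wildtype. mt-Co1, the catalytic subunit of cytochrome c oxidase (complex IV), was the highest in all 5 groups, and mt-Nd3, a small subunit of NADH dehydrogenase (complex I), was the lowest protein-coding gene in all 5. In group 1 wildtype mt-Co1 reached 5942 ± 461 CPM per kilobase, followed by mt-Atp6 at 4139.5 ± 58.5 and mt-Co3 at 3573 ± 82.0. mt-Co1 did not overlap mt-Atp6, nor mt-Atp6 mt-Co3, whereas the libraries of mt-Co3, mt-Nd1 (3402 ± 783), mt-Cytb (2901 ± 485), mt-Nd2 (2844 ± 585) and mt-Co2 (2420.0 ± 49.0) overlapped from each to the next. Below these came mt-Nd5 at 1558 ± 271, mt-Nd4 at 1359 ± 66.5 and mt-Atp8 at 883 ± 31.7. mt-Nd6 (627 ± 103), mt-Nd4l (568 ± 58.4) and mt-Nd3 (338 ± 65.8) were the lowest of the 13. Both rRNAs had lower means, with mt-Rnr1 (323 ± 162) overlapping mt-Nd3. Values were divided by the full length of each gene. The shortest protein-coding genes are mt-Atp8 (204 bases), mt-Nd4l (297) and mt-Nd3 (348), against reads of 151 bases. The part of gene length in the order and the range of any group was not tested.

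In group 2 wildtype the order was again led by mt-Co1 at 1771 ± 247 CPM per kilobase, mt-Atp6 at 1364 ± 297 and mt-Nd1 at 1348 ± 137. mt-Nd4l (105 ± 18.4) and mt-Nd3 (90.6 ± 33.6) were again at the bottom, and the part of gene length in this was again not tested. Neighbours in that order overlapped in their libraries with 1 exception, mt-Atp8 (249.8 ± 53.9) above mt-Nd4l. The rRNA mt-Rnr2 stood at 262 ± 24.4, among the less abundant messenger RNAs, and mt-Rnr1 at 41.4 ± 36.7 was the lowest of all 15 genes. The place of both rRNAs, in this order and in that of group 1, describes the libraries and not the cells. The ranges of the 13 protein-coding genes were 12.3-fold in the group 1 mutant, 19.6-fold in group 2 wildtype, 17.3-fold in its mutant and 17.3-fold in the low-yield mutant.

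**Figure D3:**
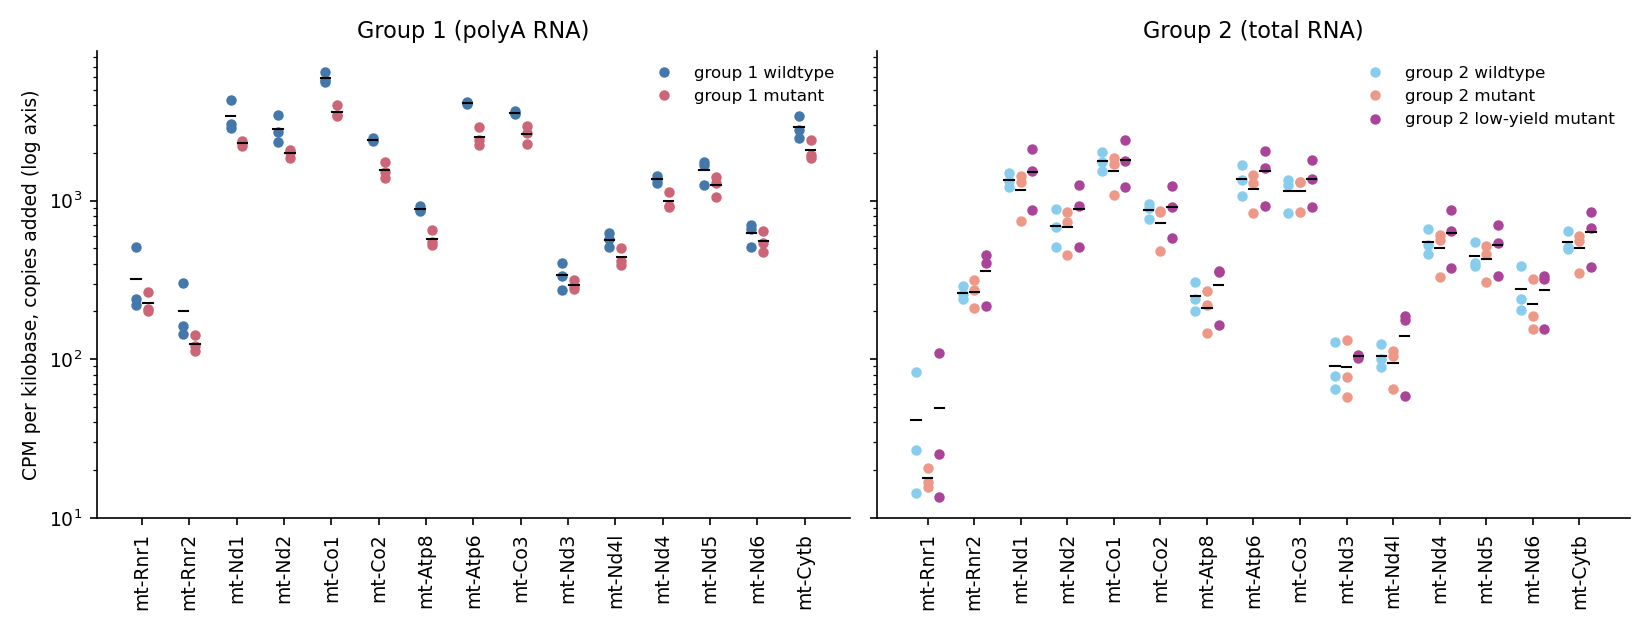
Level of each tested mitochondrial gene in CPM per kilobase, nuclear copies added (y axis, log axis), in genome order (x axis), with group 1 on the left and group 2 on the right. Points are libraries and black bars the mean of 3, and mt-Co1 is the highest gene in every group while mt-Rnr1 spreads widely in group 2.

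In group 1, 5 of the 15 mitochondrial genes tested were lower in the mutant than in wildtype, all of them protein-coding. They passed an adjusted p of 0.05 in edgeR's quasi-likelihood test, where 6.78% of all 14048 genes tested were called lower and 12.6% in either direction. They were mt-Co1, mt-Co2, mt-Atp8, mt-Nd4 and mt-Nd4l. All 15 fitted changes were below 0, and the median log2 fold change of the 13 protein-coding genes was -0.49, beside 0.00751 over all genes. In 9 of the 15 every mutant library was below every wildtype library, as in 16.6% of all genes.

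The count of calls rose when the copies were added or the replicate number was used as a block. With the counts of the copies added, 7 of 15 were called lower (background 6.77%), the additions being mt-Atp6 and mt-Co3, and 11 of 15 had no overlap between the groups. The labels give replicate numbers but state no pairing of libraries. In group 1 same-numbered libraries correlated in their deviations from the group means (r = 0.44, 0.19 and 0.15), though wildtype 3 with mutant 2 reached 0.23. With the replicate number as a block 9 were called lower, where 9.92% of all genes were called lower and 20.4% in either direction. With both, 10 were called lower (background 9.91%). Leaving out 1 library at a time gave 3 to 8 calls. There were 3 without wildtype replicate 2, where 3.17% of all genes were called lower, 3 without mutant replicate 1 (5.56%) and 8 without mutant replicate 2 (6.07%). mt-Co1 and mt-Atp8 were called in each of these fits and with each other setting tried.

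Complex IV, cytochrome c oxidase, passes electrons to oxygen, and its 3 mitochondrial subunits form its core. mt-Co1, which holds the site of oxygen reduction, was at 9983, 8677 and 8832 CPM in wildtype and 5324, 6159 and 5253 in the mutant. The groups were far apart, and the gene fell by 39.1% (log2 fold change -0.72, SE 0.082, adjusted p = 0.00037). mt-Co2, which accepts electrons from cytochrome c, was at 416, 429.7 and 463 CPM on its own row in wildtype and 269, 344 and 239.6 in the mutant, without overlap. It fell by 34.8% (log2 fold change -0.62, SE 0.13, adjusted p = 0.022), but the call was lost without wildtype replicate 1 (adjusted p = 0.059), 2 (0.085) or 3 (0.083) or without mutant replicate 1 (0.093). With its copies, mt-Co2 was at 1642, 1693 and 1630.2 CPM against 947, 1195 and 1043, again with no overlap, and this sum fell by 35.9% (log2 fold change -0.64, SE 0.080, adjusted p = 0.00055) and was called without any 1 of the 6 libraries.

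mt-Co3, the third core subunit, was at 734, 591 and 692 CPM on its row in wildtype and 442, 657 and 514 in the mutant, with mutant replicate 2 inside the wildtype range. The row alone was not called (log2 fold change -0.32, SE 0.16, adjusted p = 0.27), except when mutant replicate 2 was left out (adjusted p = 0.024). Its sum with the copy was 2871, 2789 and 2744 CPM against 1794, 2306 and 2095, without overlap, and fell by 26.3% (log2 fold change -0.44, SE 0.084, adjusted p = 0.0059). Its copy, Gm28437, fell too, with a log2 fold change of -0.48 (SE 0.077, adjusted p = 0.0023).

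ATP synthase, complex V, has 2 subunits from this genome. mt-Atp8, a short subunit of its membrane part that has no counted copy, was at 178, 175 and 188 CPM in wildtype and 108, 133 and 111 in the mutant. All mutant libraries were lower, by 35.0% in the fit (log2 fold change -0.62, SE 0.080, adjusted p = 0.00066). mt-Atp6, part of the proton channel, was at 252, 303 and 339 CPM on its row against 164, 259 and 197, where mutant replicate 2 exceeded wildtype replicate 1. This row was not called (log2 fold change -0.53, SE 0.20, adjusted p = 0.18), yet it was called with the replicate block (adjusted p = 0.0023) and without mutant replicate 2 (0.027). The sum of mt-Atp6 and its copy was 2859.6, 2817 and 2780.0 CPM in wildtype and 1533, 1981 and 1649 in the mutant. These did not overlap, and the sum fell by 39.0% (log2 fold change -0.71, SE 0.086, adjusted p = 0.00054), close to mt-Co1.

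Complex I, NADH dehydrogenase, takes 7 membrane subunits from this genome, and 2 of them were called. mt-Nd4 was at 1617, 1525 and 1458 CPM in wildtype and 1025, 1291 and 1033 in the mutant, without overlap. It fell by 27.2% (log2 fold change -0.46, SE 0.090, adjusted p = 0.0084), with an adjusted p of 0.051 without wildtype replicate 2, and its sum with the copy fell by 27.0% (adjusted p = 0.0064). mt-Nd4l was at 165, 128 and 150.5 CPM against 103, 124 and 108, a narrow gap, and fell by 24.2% (log2 fold change -0.40, SE 0.10, adjusted p = 0.032). With its copy it was at 186, 151 and 169 CPM against 117, 149.6 and 124 (log2 fold change -0.37, SE 0.10, adjusted p = 0.046). The call of the row was lost with the replicate block (adjusted p = 0.051) and without wildtype replicate 1 (0.10) or 3 (0.12) or mutant replicate 1 (0.091) or 3 (0.15). The call of the sum was lost in the same cases, with the block (adjusted p = 0.074) and without those libraries (0.15, 0.14, 0.11 and 0.18, in the same order).

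mt-Nd1 was at 4117, 2899 and 2751 CPM in wildtype and 2264, 2206 and 2118 in the mutant, where wildtype replicate 1 stood above the rest. It did not pass the test (log2 fold change -0.57, SE 0.16, adjusted p = 0.065) although the groups did not overlap. The same held for mt-Nd2, at 3619, 2807 and 2431 CPM against 2114, 2168 and 1931 (log2 fold change -0.51, SE 0.14, adjusted p = 0.065). Both were called with the replicate block, at an adjusted p of 0.0011 for mt-Nd1 and 0.00045 for mt-Nd2. Both were also called without wildtype replicate 3 (0.035 and 0.013), and mt-Nd1 without wildtype replicate 1 (0.019).

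The remaining complex I genes were not called. mt-Nd5 was at 3179, 3070.4 and 2274 CPM in wildtype and 2357, 2585 and 1927 in the mutant, which overlapped (log2 fold change -0.31, SE 0.16, adjusted p = 0.29), with an adjusted p of 0.0026 under the replicate block. mt-Nd6, the minus-strand gene, was at 366, 346 and 265 CPM against 279, 336 and 247 and also overlapped (log2 fold change -0.18, SE 0.16, adjusted p = 0.53). The mt-Nd3 row held 2.59 to 5.28 CPM in group 1, and with its copy mt-Nd3 was at 141, 116 and 95.2 CPM in wildtype and 95.8, 109 and 101 in the mutant. That sum was not called (log2 fold change -0.20, SE 0.14, adjusted p = 0.40).

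mt-Cytb, the subunit of complex III that handles ubiquinone, was at 3199, 3923 and 2833 CPM in wildtype and 2229.6, 2766 and 2115 in the mutant. The groups did not overlap, but the test was not passed (log2 fold change -0.49, SE 0.15, adjusted p = 0.089). With the replicate block its adjusted p was 1.8e-05, and without wildtype replicate 3 or mutant replicate 2 it was 0.046 or 0.049. Neither rRNA was called. The large-subunit rRNA mt-Rnr2 was at 229, 256 and 477 CPM against 191, 178 and 224, and mt-Rnr1 was at 227, 210.4 and 487 CPM against 197, 193 and 254. Wildtype replicate 3 was the high library for both, and the fitted changes were -0.70 (SE 0.34, adjusted p = 0.29) and -0.52 (SE 0.41, adjusted p = 0.49). Leaving out 1 library at a time moved these over -0.88 to -0.30 for mt-Rnr2 and -0.73 to -0.033 for mt-Rnr1.

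As a description, with no test, each gene's share of the pool of 13 messenger RNAs was taken with copies added. The libraries of the groups did not overlap for 4 of the 13, a count with no background over all genes to set beside it. mt-Co1 made up 29.2% ± 1.52 of the pool in wildtype and 26.2% ± 0.139 in the mutant, with every mutant library lower. mt-Nd6 made up 1.03% ± 0.0959 against 1.34% ± 0.0937, mt-Nd3 0.371% ± 0.0400 against 0.479% ± 0.0232 and mt-Nd4 5.96% ± 0.235 against 6.39% ± 0.223, with every mutant library above every wildtype library. The shares of the other 9 overlapped, among them mt-Nd1 (10.3% ± 1.51 and 10.3% ± 0.909) and mt-Cytb (10.6% ± 1.71 and 11.1% ± 0.567). The gap for mt-Nd4 was narrow, from 6.17% in the highest wildtype library to 6.19% in the lowest mutant library. The shares of a library sum to the whole pool, so a lower share of mt-Co1 goes with higher shares of others. Whether members changed by different amounts was not tested.

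**Figure D4:**
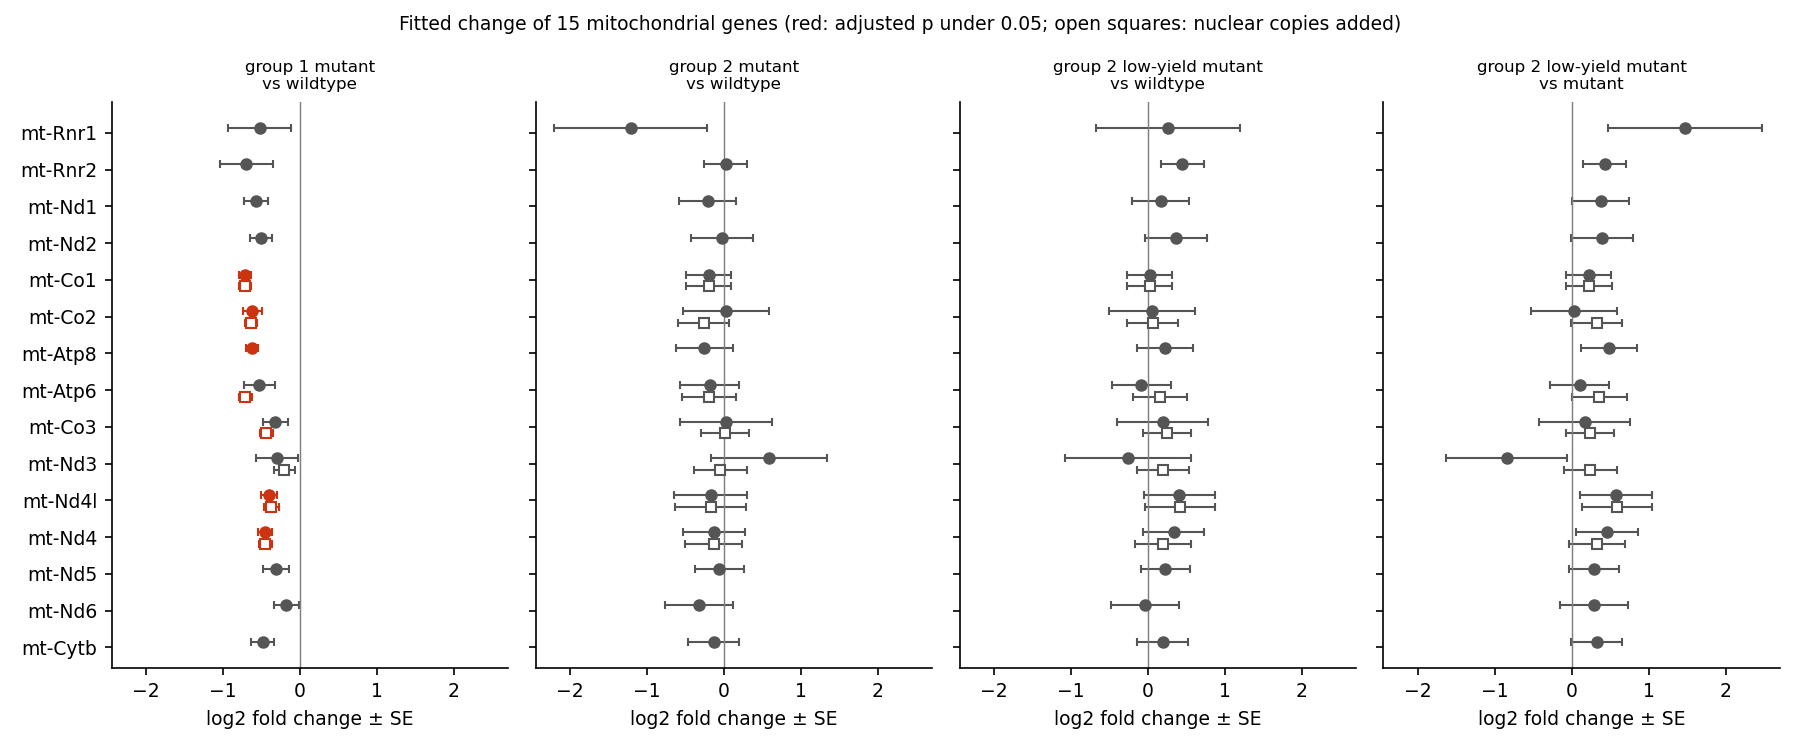
Fitted log2 fold change ± SE (x axis, same scale in each panel) of the 15 tested mitochondrial genes in genome order (y axis) for 4 comparisons; circles are the mitochondrial row, open squares add the nuclear copies, and red marks an adjusted p under 0.05. In group 1 every value lies below 0 and 5 rows are red, and in the 3 comparisons of group 2 none is.

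Other measures moved with the mutation in group 1. The summed level of the 16 erythroid markers was 5526 to 8443 CPM in wildtype and 4048 to 4217 in the mutant, with 10 markers called lower and 1 higher, where 6.78% and 5.79% of all genes were. Slc4a1, the anion exchanger of the red cell membrane, fell the most (log2 fold change -2.07, SE 0.29, adjusted p = 0.017), and the stem cell factor receptor Kit rose (log2 fold change 0.30, SE 0.065, adjusted p = 0.013). The 12 hepatocyte markers summed to 36.9 to 68.4 CPM in wildtype and 8.32 to 24.7 in the mutant, none at 0 in a whole group, with 3 called lower and Serpina1a the largest decrease (log2 fold change -2.56, SE 0.77, adjusted p = 0.045). Granulocyte markers ranged over 103 to 796 CPM and 258 to 1480.0, with 0 of 11 called in edgeR, 0 in DESeq2 (which called 16.4% of all genes) and 0 at an unadjusted p under 0.05 (27.4% of all genes). With the replicate block 4 of them were called higher, where 10.5% of all genes were. Macrophage markers summed to 1.49 to 7.34 CPM in wildtype and 2.05 to 12.6 in the mutant, with Timd4 at 0 in both and C1qc at 0 in the mutant. Of the 4 tested, 0 were called in edgeR (12.6% of all genes), 0 in DESeq2 and 0 at an unadjusted p under 0.05. With the replicate block 1 of the 4, Vcam1, was called higher, where 10.5% of all genes were. The part of all these markers in the mitochondrial values of group 1 was not tested.

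In group 2 no mitochondrial gene was called between mutant and wildtype, 0 of 15, where 6.27% of all 15024 genes tested were. No member had an unadjusted p under 0.05 in edgeR, as 20.4% of all genes did, and DESeq2 called 0 members and 9.66% of all genes. Protein-coding log2 fold changes ran from -0.33 to 0.59 with a median of -0.13, beside -0.00958 over all genes. The upper end was the mt-Nd3 row, and with the copies added the range was -0.33 to 0.010 and the median -0.17. No member separated the groups completely, while 11.8% of genes had every mutant library below every wildtype library and 11.5% above.

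mt-Co1 was at 2362, 3123 and 2717 CPM in group 2 wildtype and 2862, 2609 and 1677 in its mutant. Mutant replicates 1 and 2 lay inside the wildtype range and replicate 3 below it, for a log2 fold change of -0.20 (SE 0.29, 95% interval -0.89 to 0.50, adjusted p = 0.78), an interval that holds the value fitted in group 1. The sum of mt-Atp6 and its copy was 731, 1135 and 921 CPM against 985, 879 and 567 (log2 fold change -0.20, SE 0.35, interval -1.04 to 0.65). mt-Atp8 was at 41.2, 62.9 and 48.8 CPM against 44.7, 54.6 and 29.6 (log2 fold change -0.26, SE 0.37). The same library, mutant replicate 3, was the lowest of the 6 for each of these.

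That library was low for the whole set. In mutant replicate 3, 15 of 15 genes were below the wildtype mean of group 2, copies added, with log2 ratios from -1.30 to -0.22 and a median of -0.71. Mutant replicates 1 and 2 had medians of 0.046 and 0.10. Without replicate 3 the median fold change of the protein-coding genes was 0.073 and 0 of 15 were called, in a fit that called 2.78% of all genes. Its total count was 38972058, the highest of the 3 mutant libraries, and the part of depth in its low mitochondrial level was not tested.

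The low-yield mutant was likewise not distinguished from wildtype: 0 of 15 members were called, where 12.5% of all genes were, with 0 at an unadjusted p under 0.05 in edgeR (26.5% of all genes) and 0 called by DESeq2 (15.3%). Protein-coding log2 fold changes ran from -0.26 to 0.41, with a median of 0.19. The lower end was the mt-Nd3 row, and with the copies added the range was -0.035 to 0.42, with the same rounded median. mt-Co1 was at 2749, 3717 and 1883 CPM in its libraries, which spanned the wildtype range on both sides (log2 fold change 0.025, SE 0.29, interval -0.67 to 0.72). No member separated the groups, where 14.6% of all genes had every low-yield library below wildtype and 15.3% above. mt-Nd4l was at 52.2, 54.8 and 16.9 CPM against 26.3, 37.1 and 29.4 in wildtype (log2 fold change 0.41, SE 0.46), and with its copy at 52.5, 55.7 and 17.4 against 26.3, 37.1 and 29.9 (0.42, SE 0.45). Both comparisons with wildtype share the wildtype libraries.

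Here too replicate 3 stood apart, with 14 of 15 genes below the wildtype mean (median -0.54), whereas replicate 2 had 14 of 15 above it (median 0.61) and replicate 1 all 15 (median 0.28). Replicate 3 was the deepest library of its group, at 41316995 counts. Without it 2 members were called higher than wildtype, where 6.85% of all genes were: mt-Rnr2, with a log2 fold change of 0.71 (adjusted p = 0.0036), and mt-Nd4l, with 0.79 (adjusted p = 0.022). Between the low-yield mutant and the mutant, 0 of 15 were called, as were 0 of all genes (0%), with 0 members at an unadjusted p under 0.05 in edgeR (3.19% of all genes) and 0 called by DESeq2 (0.0399%). No member separated these groups either, where 4.15% of genes were below and 4.07% above in every low-yield library. The median log2 fold change of the protein-coding genes was 0.29.

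The rRNAs varied in their own way in group 2. mt-Rnr1 was at 25.6, 79.4 and 13.7 CPM in wildtype, 19.8, 15 and 16.1 in the mutant and 105, 12.9 and 24.2 in the low-yield mutant. Single libraries, wildtype replicate 2 and low-yield replicate 1, were several times above the others of their groups, and the fitted change between mutant and wildtype had an SE of 1.00 (-1.21, adjusted p = 0.58). mt-Rnr2 was at 408, 380.1 and 456 CPM in wildtype, at 433, 499 and 332 in the mutant and at 636, 719.7 and 345 in the low-yield mutant. These groups overlapped (log2 fold change 0.021 for the mutant and 0.45 for the low-yield mutant, adjusted p = 0.98 and 0.37). mt-Rnr1 and mt-Rnr2, separated on the circle by a single tRNA gene, had their highest levels in different libraries of the low-yield mutant and of wildtype.

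**Figure D5:**
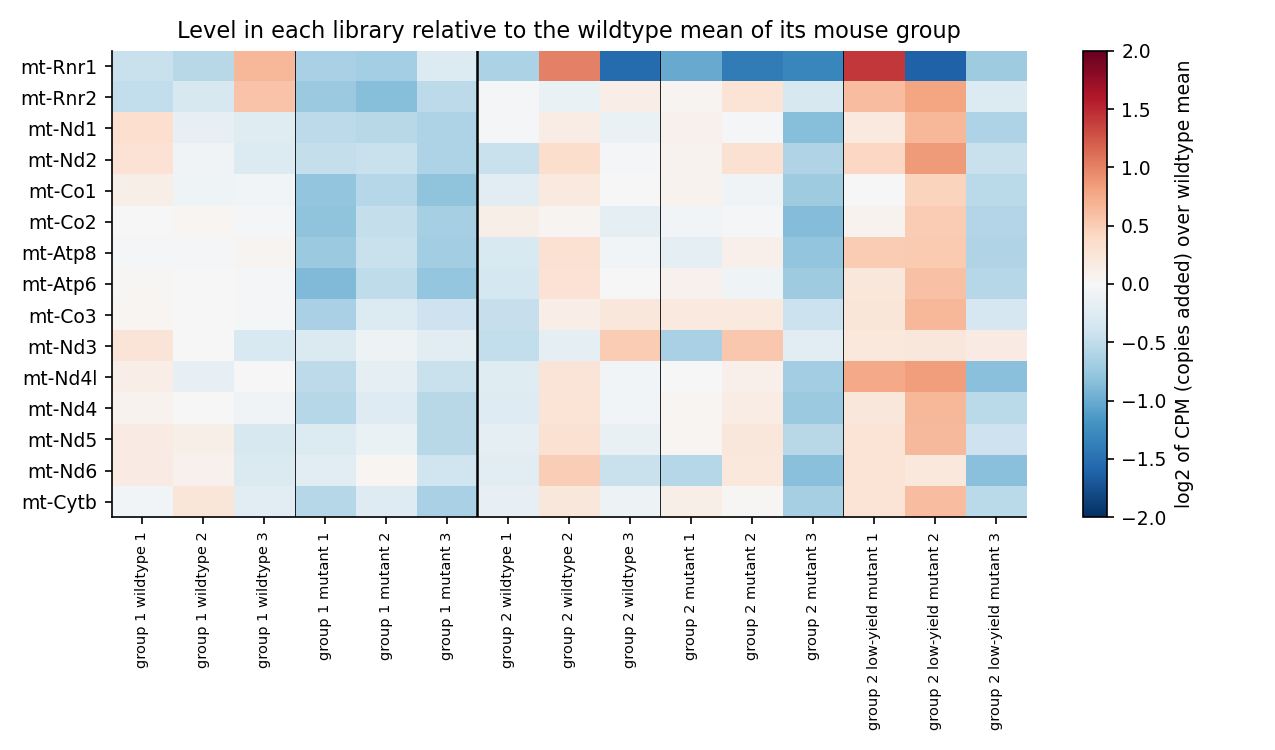
Log2 ratio of each gene's CPM, copies added, to the wildtype mean of its own group of mice (colour, blue below and red above), with the 15 genes in genome order (y axis) and the 15 libraries by group (x axis). The 3 mutant libraries of group 1 are blue for nearly every gene, and in group 2 replicate 3 of the mutant and of the low-yield mutant are blue, except mt-Nd3 in the latter, while low-yield replicate 2 is red except for mt-Rnr1.

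The difference between the mutant effects of the 2 groups of mice was tested itself, with the kind of RNA confounded with the group. No member was called, 0 of 15, where 0.0188% of 15954 genes were; 1 member had an unadjusted p under 0.05 in edgeR, as 2.14% of all genes did, and DESeq2 called 0 members and 0.0815% of all genes. That member was mt-Co1, whose fitted decrease was smaller in group 2 than in group 1, with a difference in log2 fold change (group 2 minus group 1) of 0.54 (SE 0.24, 95% interval 0.00085 to 1.07, adjusted p = 1). For the mt-Atp6 sum the difference was 0.53 (SE 0.29) and for mt-Atp8 0.38 (SE 0.27). Without group 2 mutant replicate 3, 8 members had an unadjusted p under 0.05, as 2.25% of all genes did, and 0 were called. The calls in group 1 and their absence in group 2 were thus not shown to differ.

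Other RNAs moved between the groups of group 2. The 6 matched nuclear genes of the list of RNAs without a poly(A) tail, such as the RNase P RNA Rpph1, summed to 5951 to 6317 CPM in wildtype, 4150.5 to 5047 in the mutant and 1838 to 3026 in the low-yield mutant, with Rny1 and Rny3 at 0. Of the 4 tested, 0 were called in mutant against wildtype (6.27% of all genes), and 0 had an unadjusted p under 0.05 in edgeR (20.4%). In the low-yield mutant 3 of the 4 were called lower, where 5.86% of all genes were, Rpph1 the most (log2 fold change -1.61, SE 0.20, adjusted p = 0.0014). Granulocyte markers summed to 18.0 to 36.2, 138 to 230.0 and 177 to 381 CPM, and 6 of the 10 tested were called higher in the mutant comparison and 10 of 10 in that of the low-yield libraries, where 3.32% and 6.68% of all genes were, with Mpo (log2 fold change 3.03, SE 0.58, adjusted p = 0.034) and Lyz2 (log2 fold change 3.82, SE 0.58, adjusted p = 0.00070) leading. Erythroid markers summed to 6937 to 10388, 5368 to 6035 and 4946 to 6400.1 CPM, with 4 and 7 of 16 called lower, where 2.95% and 5.86% of all genes were, and 2 higher in each. The embryonic globin Hbb-bh1 rose the most in both (log2 fold change 0.83, SE 0.18, adjusted p = 0.021, and log2 fold change 1.68, SE 0.18, adjusted p = 0.00019), and the adult globin Hbb-bt fell the most (log2 fold change -2.25, SE 0.38, adjusted p = 0.019, and log2 fold change -2.55, SE 0.38, adjusted p = 0.0068). Hepatocyte markers overlapped between the 3 groups, at 12.9 to 91.6, 11.8 to 57.1 and 50.9 to 56.0 CPM. What part these have in the mitochondrial values was not tested.

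The nuclear genes that serve the same machinery were examined in the same fits. Of 75 nuclear subunits of the respiratory complexes and ATP synthase, 4 were called higher and 0 lower in group 1, where 5.79% and 6.78% of all genes were, and their median log2 fold change was 0.038. Atp5g2, which encodes the ring subunit of ATP synthase, had the largest increase (log2 fold change 0.30, SE 0.070, adjusted p = 0.016). Their summed level was 12267 to 12776 CPM in wildtype and 12722 to 13835 in the mutant. The test of a difference between the nuclear and the mitochondrial subunits was not made.

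Of 78 proteins of the mitochondrial ribosome, 5 were called higher and 1 lower in group 1, where 5.79% and 6.78% of all genes were. With the replicate block 11 were called higher and 1 lower, where 10.5% and 9.92% of all genes were. The list had a median log2 fold change of 0.061. Mrps27 of the small subunit rose the most (log2 fold change 0.38, SE 0.078, adjusted p = 0.0094) and Mrpl41 of the large subunit fell (log2 fold change -0.31, SE 0.089, adjusted p = 0.039). Of 46 genes for the copying, processing and decay of mitochondrial DNA and RNA, 1 was called higher and 3 lower. The one that rose was Lrpprc, which stabilises mitochondrial messenger RNAs (log2 fold change 0.38, SE 0.066, adjusted p = 0.0036), and the largest decrease was that of Mrm1, a methyltransferase of the large rRNA (log2 fold change -0.54, SE 0.079, adjusted p = 0.0014). With the replicate block 1 of the 46 was called higher and 4 lower, where 10.5% and 9.92% of all genes were. Of 15 tested genes of mitochondrial mass, biogenesis and removal, 1 was called, the matrix chaperonin Hspd1, which rose (log2 fold change 0.37, SE 0.073, adjusted p = 0.0070), and with the replicate block 2 were.

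In group 2, 0 of the 75 nuclear respiratory genes were called in the mutant (2 at an unadjusted p under 0.05 in edgeR, where 20.4% of all genes were, and 1 called by DESeq2, which called 9.66%), by a test that called 3.32% of all genes higher and 2.95% lower, and 1 was called higher in the low-yield mutant, again Atp5g2 (log2 fold change 0.35, SE 0.093, adjusted p = 0.021). In the low-yield comparison 6.68% of all genes were called higher and 5.86% lower. Of the 78 mitochondrial ribosomal proteins, 2 were called higher in the mutant, led by Mrps27 (log2 fold change 0.43, SE 0.11, adjusted p = 0.039), whereas the low-yield comparison gave 6, led by Mrpl47 (log2 fold change 0.48, SE 0.15, adjusted p = 0.048). Of the 46 RNA factors 0 were called in the mutant (12 at an unadjusted p under 0.05 in edgeR and 3 called by DESeq2, against the same 20.4% and 9.66%), and in the low-yield mutant 3 rose and 1 fell: Tfb2m, a transcription factor of the mitochondrial RNA polymerase, rose the most (log2 fold change 0.50, SE 0.12, adjusted p = 0.011), and Mrm1 fell (log2 fold change -0.44, SE 0.090, adjusted p = 0.0056). Hspd1 rose in both (log2 fold change 0.38, SE 0.081, adjusted p = 0.012, and log2 fold change 0.38, SE 0.081, adjusted p = 0.0066), and Pink1, a kinase that marks damaged mitochondria for removal, fell in both (log2 fold change -0.51, SE 0.13, adjusted p = 0.030, and log2 fold change -0.82, SE 0.13, adjusted p = 0.00091).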

How the data were processed

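Libraries were grouped by their titles. Per the submitters' processing notes, cutadapt 2.3, FastQC 0.11.8, STAR 2.7.8a, RSEM 1.3.3, MultiQC 1.7 and build GRCm38 were used, with no role or order given; annotation release and strand setting are not given in the sources used here. The authors deposited expected counts per gene, not scaled between libraries, and these were whole numbers, which rounding left as deposited. The 5 rows that name no mouse gene held 5 counts and were left out. The test was the robust, two-sided quasi-likelihood F test of edgeR (version 4.0.16, R version 4.3.3) after filterByExpr and TMM scaling, over all genes (SE: the fold change over the root of F), with Benjamini-Hochberg adjustment and a threshold of 0.05. Group 1 was fitted with its 6 libraries, group 2 with its 9, and the interaction with 12. DESeq2 1.42.0 was an alternative. Scripts were tested on simulated data.

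Nuclear copies were found with BLAST 2.17.0. In group 1, same-numbered libraries correlated in their deviations from the group means (r = 0.44, 0.19, 0.15, across 14048 genes). Pairs of different number ranged from -0.35 to 0.23, the highest being wildtype 3 with mutant 2, above 2 of the 3 same-numbered pairs. As every same-numbered pair exceeded 0.1, the replicate block is given beside calls it changed. In group 2 they did not all do so.

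All 15 tested mitochondrial genes were named, and from each of 9 lists the called gene with the largest increase and decrease per comparison. Members and lists were chosen with earlier results of these data known. All 5 comparisons, other scalings, no filter on low counts, the copies, the block, fits over 6 libraries and leaving out each library were tried.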

Additional observations from a re-analysis of the deposited data

How the results depend on the processing

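The number of mitochondrial genes called in group 1 was 5 as reported and 4 to 7 with median-ratio size factors, DESeq2, no filter on low counts, scaling by nuclear genes only, total counts or the copies added. It was 9 with the replicate block and 10 with the block and the copies. Both fits also called more of all genes, 2863 with the block against 1766 without, and 2862 with block and copies against 1764 with the copies alone. Calls of single genes that changed are given beside them above, except that DESeq2 also called mt-Nd1 and mt-Nd2, and that mt-Co2 missed the threshold without the filter on low counts and with total counts; the cause was not tested. All 15 values of group 1 kept their sign under every alternative. Leaving out each library gave 3 to 8 calls in group 1 and 0 to 2 in the low-yield comparison with wildtype, and 0 in the other comparisons. The summed counts of mt-Co1, mt-Co2, mt-Atp6, mt-Co3 and mt-Nd4, left out 1 library at a time, stayed called, and the mt-Nd4l sum lost its call in 4 of 6 cases and with the block. These runs on sums, the block with copies and the class shares with copies were chosen after seeing the data. With copies added, the protein-coding shares moved from 2.51% to 3.15% in group 1 wildtype, from 1.72% to 2.14% in its mutant, from 0.739% to 0.949% in group 2 wildtype and from 0.681% to 0.872% in its mutant.

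Group 2 numbers do not pair by the same check (r from -0.068 to 0.24), and the replicate block called 0 members there, in fits that called 8.71% (mutant against wildtype), 15.5% (low-yield against wildtype) and 0% (low-yield against mutant) of all genes. No member was called in group 2, and these log2 fold changes turned. In mutant against wildtype they were mt-Nd2 with total counts (0.00265), mt-Co2 and mt-Nd3 with copies (-0.26 and -0.046), and mt-Co2, mt-Co3 and mt-Rnr2 with the block (-0.15, -0.070 and -0.024). In low-yield against wildtype they were mt-Nd6 with total counts (0.00588), mt-Atp6 and mt-Nd3 with copies (0.16 and 0.19), and mt-Co1 and mt-Co2 with the block (-0.031 and -0.19). In low-yield against mutant they were mt-Nd3 with copies (0.24) and mt-Co2 with the block (-0.038). Leaving out each library turned further signs, over these ranges. Mutant against wildtype: mt-Atp6 -0.32 to 0.00462, mt-Co2 -0.32 to 0.29, mt-Co3 -0.18 to 0.32, mt-Cytb -0.27 to 0.073, mt-Nd1 -0.38 to 0.026, mt-Nd2 -0.22 to 0.19, mt-Nd3 -0.86 to 1.15, mt-Nd4 -0.27 to 0.10, mt-Nd4l -0.32 to 0.051, mt-Nd5 -0.22 to 0.13 and mt-Rnr2 -0.12 to 0.17. Low-yield against wildtype: mt-Atp6 -0.30 to 0.25, mt-Co1 -0.23 to 0.24, mt-Co2 -0.34 to 0.46, mt-Co3 -0.21 to 0.63, mt-Cytb -0.066 to 0.46, mt-Nd1 -0.15 to 0.44, mt-Nd5 -0.025 to 0.47, mt-Nd6 -0.22 to 0.29 and mt-Rnr1 -1.06 to 1.28. Low-yield against mutant: mt-Atp6 -0.11 to 0.43, mt-Co1 -0.037 to 0.44, mt-Co2 -0.36 to 0.44, mt-Co3 -0.24 to 0.60 and mt-Nd3 -1.41 to 0.60. Interaction: mt-Nd3 -0.55 to 1.43, mt-Nd6 -0.51 to 0.15 and mt-Rnr1 -1.15 to 0.31.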
